A study of Homo sapiens with 34 samples.

Results

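EZH2 RNA immunoprecipitation (RIP) in AD cells was set against control IgG RIP of the same cells. AD cells are LNCaP, an established human prostate cancer line that depends on androgen, grown in RPMI1640 medium. The comparison held 4 of the 34 libraries of the series, namely 2 with anti-EZH2 and 2 with IgG, numbered as replicates 1 and 2 in both arms. All 4 came from cells irradiated with ultraviolet light at 400 mJ/cm2 to fix RNA to protein, treated with DNase, precipitated on protein G beads and run on a gel, from which the region above the protein was cut out. Genes were members when they had 2 RPKM (read counts scaled by gene length and library size) or more in both EZH2 libraries or in both IgG libraries. This rule gave 6998 of the 25035 genes listed. For each gene the log2 ratio of EZH2 over IgG was taken within replicate 1 and within replicate 2, after adding 0.5 RPKM. The 4 libraries of the same design from AI cells, the androgen-independent derivative kept in medium with charcoal-stripped serum, served as a comparison. Nothing in the labels tells if replicates came from separate cultures, and p-values may therefore reflect technical spread between libraries only.

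EZH2 is the catalytic subunit of Polycomb repressive complex 2 (PRC2). It places methyl groups on lysine 27 of histone H3 (H3K27me3), a mark that keeps developmental genes silent. PRC2 also binds RNA in many cell types, and nascent and long noncoding RNAs have been described as its partners. In prostate cancer EZH2 is often abundant. RIP with IgG shows which RNAs stay on the beads without an antibody to the protein.

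The EZH2 libraries were much deeper than the IgG libraries. Depth was estimated from the steps between the low values of short RNA genes and came to 8.24 M and 7.09 M reads (M, megareads) with anti-EZH2, against 0.368 M and 1.85 M reads with IgG. On a gene of 2 kb, 1 read was therefore worth 0.0607 and 0.0706 RPKM in the EZH2 libraries, against 1.36 and 0.270 RPKM in the IgG libraries. Of all genes 18297 and 19832 were above 0 with anti-EZH2, against 9553 and 16185 with IgG. IgG replicate 1 stood apart, since mitochondrially encoded genes made up 31.7% of its summed RPKM, against 9.26% in IgG replicate 2 and 4.84% and 2.40% in the EZH2 libraries. A gene under 2 kb could pass 2 RPKM in IgG replicate 1 with 1 or 2 reads. Across the 13667 genes tested, log2 levels correlated at 0.885 between the EZH2 libraries and at 0.660 between the IgG libraries. Within a replicate number, EZH2 and IgG levels correlated at 0.658 (replicate 1) and 0.823 (replicate 2).

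In RPKM as deposited, most genes of the rule had more signal with anti-EZH2 than with IgG. Genes with both ratios above 1 had a longer median span than all members. Protein-coding genes made up 97.0% of those with both ratios above 1 and 94.2% of all members. Both ratios were above 0 for 4178 genes, both were below 0 for 1448, and the signs were opposite for 1362. The median ratio was 0.79 in replicate 1 and 0.54 in replicate 2. Summed RPKM over all genes was 73059 and 95731 with anti-EZH2, against 65009 and 68795 with IgG. The ratios were not scaled for this gap. Over the 13667 genes tested the median log2 change was 0.43, and -0.04 after quantile normalization, so the excess depended on the scaling. Both ratios exceeded 1 for 1795 genes (25.7%) and both were under -1 for 162 genes (2.31%). Both EZH2 values lay above both IgG values for 3034 genes (43.4%) and below both for 1000 genes (14.3%). Across these genes the 2 ratios correlated at 0.629. Against IgG replicate 2 alone, the deeper of the IgG libraries, both EZH2 libraries gave ratios above 1 for 1124 of the 6998 genes and under -1 for 215.

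Part of these counts was set by the rule. Of the members, 4055 had 2 RPKM or more in all 4 libraries, 2200 only in the EZH2 pair and 743 only in the IgG pair. Genes that passed through 1 pair had to differ: among the 2200, 850 had both ratios above 1 and 0 under -1, and among the 743, 0 and 104. Among the 4055 genes measured in all 4 libraries, 945 had both ratios above 1 and 58 under -1. In this set the ratios correlated at 0.734. Members whose deciding value was between 2 and 2.1 RPKM (192 genes) had median ratios of 0.35 and 0.06, and the 195 genes between 1.9 and 2 RPKM had 0.31 and -0.04.

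No gene passed the test across all genes. The limma-trend test on log2(RPKM + 0.5), over all 8 RIP libraries with Benjamini-Hochberg adjustment at 0.05, called 0 of 13667 genes (0%). The smallest adjusted p was 0.322. At an unadjusted p under 0.05 there were 1383 genes, of which 1284 were higher and 99 lower with anti-EZH2. The median log2 change over all genes tested was 0.43, and changes below are to be read against it. It was 0.01 without IgG replicate 1 and 0.92 without IgG replicate 2. In data simulated from these libraries, 0% of genes changed by 1 or by 2 on the log2 scale were called, and 19.5% of those changed by 3 (200 changed genes for each size). An exact permutation test of 2 against 2 libraries cannot give a p under 0.333. The values that follow are therefore descriptions of these 4 libraries, and "higher" and "lower" state the order of values, not a call.

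**Figure D1:**
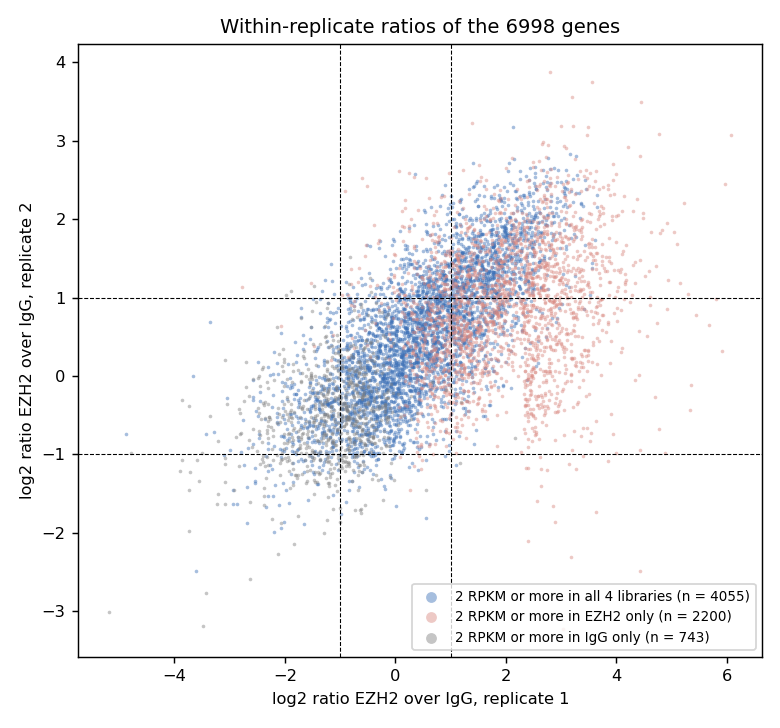
Log2 ratio of EZH2 over IgG in replicate 1 (x axis) against replicate 2 (y axis) for the 6998 genes, 1 point a gene, coloured by the libraries in which the gene had 2 RPKM or more; dashed lines mark ratios of -1 and 1. The 1795 genes in the upper right corner outnumber the 162 in the lower left, and the genes passed by the EZH2 pair alone reach the highest ratios in replicate 1.

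EZH2 itself, the precipitated protein's own gene (chromosome 7, 148807383 to 148884291 in GRCh38), had 23.3 and 16.2 RPKM with anti-EZH2 and 10.5 and 4.40 RPKM with IgG. Both EZH2 values lay above both IgG values. Its log2 change was 1.44 ± 0.95 (SE from limma, 2 libraries a group, adjusted p = 0.660).

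The 12 genes with the highest ratios ranged widely in signal, and 8 of them were listed at 0 in IgG replicate 1, of which 2 were at 0 in both IgG libraries. They were ordered by the smaller of the 2 ratios. All but BTAF1, UBR4 and ADGRV1 were members through the EZH2 pair only, which raises their ratios. BTAF1, an ATPase that removes TATA-binding protein from DNA (chromosome 10, 91923770 to 92031437), had 76.5 and 69.1 RPKM with anti-EZH2 and 8.15 and 9.28 RPKM with IgG. UBR4, a giant ubiquitin ligase (chromosome 1, 19074510 to 19210266), had 63.9 and 91.0 RPKM with anti-EZH2 and 6.18 and 12.5 RPKM with IgG. ADGRV1, a very large adhesion G protein-coupled receptor known for its part in Usher syndrome (chromosome 5, 90558797 to 91164437), had 51.3 and 57.1 RPKM with anti-EZH2 and 7.11 and 7.92 RPKM with IgG. In these 3 genes the lowest EZH2 value was several times the highest IgG value. Their log2 changes were 2.99 ± 0.56, 3.04 ± 0.58 and 2.77 ± 0.50 (SE from limma, adjusted p = 0.322 for each).

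ACACB, the mitochondrial acetyl-CoA carboxylase that makes malonyl-CoA, had 17.7 and 25.9 RPKM with anti-EZH2 and 1.14 and 2.63 RPKM with IgG. ULK4, a pseudokinase of the ULK family, had 13.2 and 16.5 RPKM with anti-EZH2, against 0 and 1.49 RPKM with IgG. TRMT1, which methylates guanosine in transfer RNA, had 10.2 and 27.2 RPKM with anti-EZH2, against 0 and 3.46 RPKM with IgG. All 3 had EZH2 values above both IgG values, and ULK4 and TRMT1 were listed at 0 in IgG replicate 1. ASAP3, a GTPase-activating protein for Arf, had 8.73 and 16.9 RPKM with anti-EZH2 and 0 and 1.80 RPKM with IgG. CCDC22, a subunit of the endosomal CCC complex, had 5.08 and 12.4 RPKM with anti-EZH2 and 0 and 0.93 RPKM with IgG. The others named were MAP4K1, a kinase of blood cells, with 4.15 and 9.15 RPKM with anti-EZH2 against 0 and 0.56 RPKM with IgG, and the fibrillar collagen COL5A2, with 4.25 and 6.08 RPKM with anti-EZH2 against 0 and 0.47 RPKM with IgG. MAP4K1 and COL5A2 had 0.44 to 0.64 RPKM in untreated AD RNA-seq. On 2 kb a 0 in IgG replicate 1 allows up to 4.08 RPKM, 3 reads, close to the replicate 1 EZH2 values of MAP4K1 and COL5A2. The exon lengths of these genes were not available here.

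The remaining leaders, MIR4482 and H2BC17, are short genes listed at 0 in both IgG libraries, and no fold is given for them. The hairpin of MIR4482, from RefSeq (GRCh38.p14, chr10:104268336-104268405, minus strand), is shown because its length of 70 bases sets how few reads lie behind its value. Capitals mark bases 2 to 8 of each mature arm.
MIR4482: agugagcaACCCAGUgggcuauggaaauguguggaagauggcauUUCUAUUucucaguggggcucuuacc
With this length, its 3.51 and 4.05 RPKM in the EZH2 libraries corresponded to 2.03 and 2.01 reads. The 0 in the IgG libraries allows up to 116.5 and 23.2 RPKM, 3 reads each, for counting error only. H2BC17, a replication-dependent histone H2B gene of 467 bases, had 2.90 and 3.35 RPKM with anti-EZH2, about 11.2 and 11.1 reads, and its 0 with IgG allows up to 17.5 and 3.47 RPKM. A difference was thus not detectable at this depth for either gene.

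The 12 genes with the lowest ratios included small nuclear and nucleolar RNAs and mitochondrial transcripts, beside several protein-coding genes. MT-RNR1, the 12S ribosomal RNA of mitochondria, had 976 and 949 RPKM with anti-EZH2 and 4927 and 3021 RPKM with IgG. MT-TF, the mitochondrial transfer RNA for phenylalanine, had 105 and 81.9 RPKM with anti-EZH2 and 455 and 258 RPKM with IgG. RN7SK, the small nuclear RNA that holds the elongation factor P-TEFb inactive (chromosome 6, 52995620 to 52995951), had 30.8 and 8.57 RPKM with anti-EZH2 and 130.1 and 34.2 RPKM with IgG. EZH2 values were below IgG values in all 3, although for RN7SK the lowest IgG value of 34.2 was close to the highest EZH2 value of 30.8. MT-ATP6, a subunit of ATP synthase, had 54.2 and 3.75 RPKM with anti-EZH2 and 352 and 15.1 RPKM with IgG, so it was high in replicate 1 with both antibodies and the groups overlapped.

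PFDN2, a subunit of the chaperone prefoldin, had 3.08 and 4.82 RPKM with anti-EZH2 and 15.9 and 20.7 RPKM with IgG. CKS2, a small partner of cyclin-dependent kinases, had 1.00 and 0.46 RPKM with anti-EZH2 and 8.78 and 5.28 RPKM with IgG. EZH2 values lay below IgG values in both, while untreated AD RNA-seq gave PFDN2 281 and 173 RPKM and CKS2 33.6 and 32.8 RPKM. CXXC5, a zinc finger protein that binds unmethylated CG sites, had 1.12 and 1.04 RPKM with anti-EZH2 and 7.87 and 4.34 RPKM with IgG. A1BG, a plasma glycoprotein gene, had 0.36 and 0.74 RPKM with anti-EZH2 and 3.12 and 4.07 RPKM with IgG. Both genes had EZH2 values below both IgG values. CHFR-DT, a divergent transcript next to CHFR, had 0 RPKM in both EZH2 libraries and 4.85 and 2.92 RPKM with IgG. SNORA8, a small nucleolar RNA of 139 bases, had 4.41 and 8.16 RPKM with anti-EZH2 and 19.4 and 31.0 RPKM with IgG, with about 0.99 reads behind the IgG value in replicate 1. RPL39P16, a ribosomal protein pseudogene, had 0 RPKM with anti-EZH2 in both libraries and 17.6 and 3.53 RPKM with IgG, which corresponded to 1.01 and 1.02 reads. SNORD3A, the U3 small nucleolar RNA, had 0.70 and 0.41 RPKM with anti-EZH2 and 15.4 and 3.09 RPKM with IgG, the IgG values from about 1.23 and 1.24 reads. The IgG values of RPL39P16 and SNORD3A thus rest on single reads. Others are also near the floor of IgG replicate 1, where 3 reads on 2 kb come to 4.08 RPKM. There A1BG had 3.12 RPKM, and CHFR-DT, with a span of 730 bases, had 4.85 RPKM. RPL39P16, CHFR-DT, CKS2, SNORD3A, A1BG and CXXC5 were members through the IgG pair only, which lowers their ratios.

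**Figure D2:**
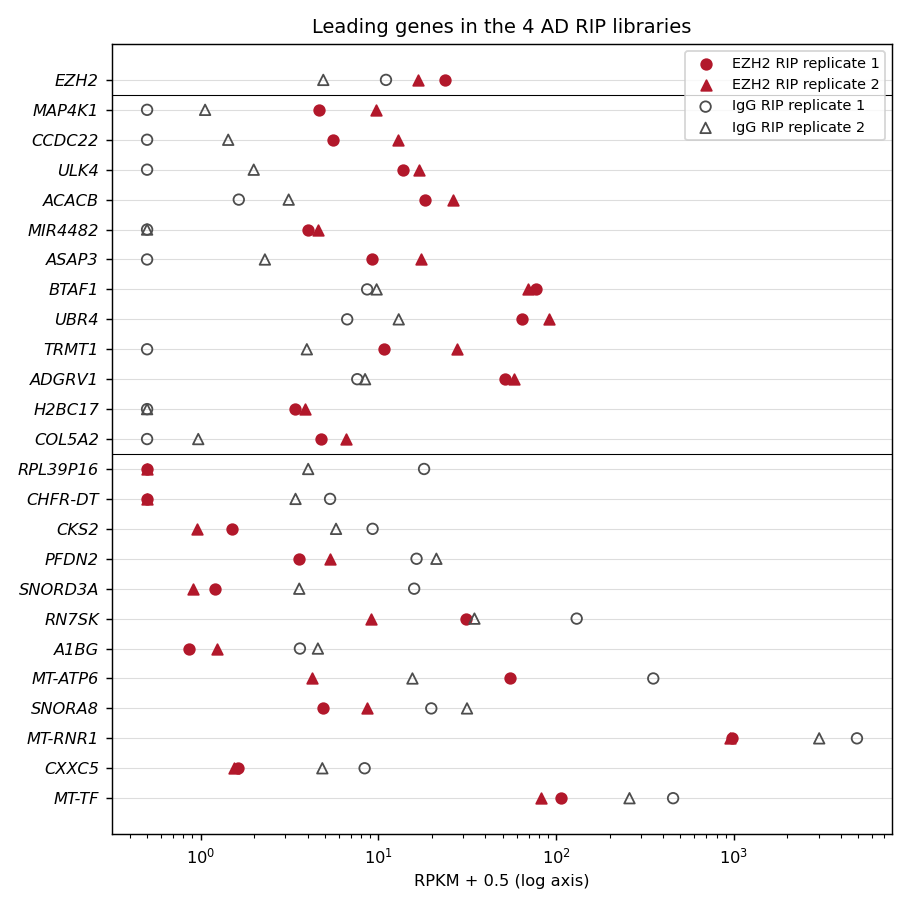
RPKM + 0.5 (log axis) of EZH2, the 12 genes with the highest and the 12 with the lowest ratios, filled red symbols for EZH2 RIP and open grey symbols for IgG RIP, circles for replicate 1 and triangles for replicate 2. In the upper block every EZH2 value lies above both IgG values; in the lower block MT-ATP6 overlaps, with 54.2 and 3.75 RPKM with anti-EZH2 and 352 and 15.1 RPKM with IgG.

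Ratios followed the length of the gene. Among genes with 2 RPKM or more in all 4 libraries, mitochondrial genes left out, those with a RefSeq span of up to 5 kb (191 genes) had median ratios of -1.04 in replicate 1 and -0.31 in replicate 2. The medians were 0.44 and 0.52 between 20 and 50 kb (1177 genes), 1.18 and 0.87 between 100 and 200 kb (585 genes), and 1.27 and 1.00 above 200 kb (292 genes). Both ratios exceeded 1 for 0.524% of genes up to 5 kb and for 45.9% above 200 kb. Where the mean over libraries was at least 10 RPKM, the medians were -1.48 and -0.39 up to 5 kb and 1.84 and 1.38 above 200 kb. Without any minimum, genes up to 5 kb held 3.73% and 4.90% of the summed RPKM with anti-EZH2, against 11.7% and 9.98% with IgG. Genes above 200 kb held 11.4% and 8.21% with anti-EZH2, against 6.06% and 5.69% with IgG. Genes with both ratios above 1 had a median span of 61.9 kb (1741 with a span), those with both under -1 one of 8.76 kb (124), and all members 38.2 kb (6697). Short genes reach 2 RPKM in IgG replicate 1 with single reads, and the part of this depth gap in the order of the classes was not tested.

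Ratios also went with the level of the RNA. In untreated AD RNA-seq (poly(A) RNA, 2 libraries), genes above 100 RPKM had median ratios of -0.76 and -0.21 (389 genes), whereas genes between 3 and 10 RPKM had 0.77 and 0.78 (1093 genes). Across the 4055 genes measured in all 4 libraries, log2 EZH2 RIP levels correlated with log2 RNA levels at 0.092 and 0.198, and IgG levels at 0.549 and 0.535. Over the 13493 tested genes with RNA-seq values, the correlations were 0.470 and 0.551 for EZH2 RIP and 0.556 and 0.680 for IgG. The gap between the arms was thus smaller without the minimum of 2 RPKM. These are correlations across genes, which are not independent replicates. Genes with both ratios above 1 had a median RNA level of 5.32 RPKM, those with both under -1 one of 28.5 RPKM and all members 9.11 RPKM. Protein-coding genes had median ratios of 0.52 and 0.56 (3897 genes) and long intergenic noncoding RNAs -0.36 and -0.38 (48 genes). RIP and RNA-seq tables were normalized separately, so their levels are only set side by side.

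**Figure D3:**
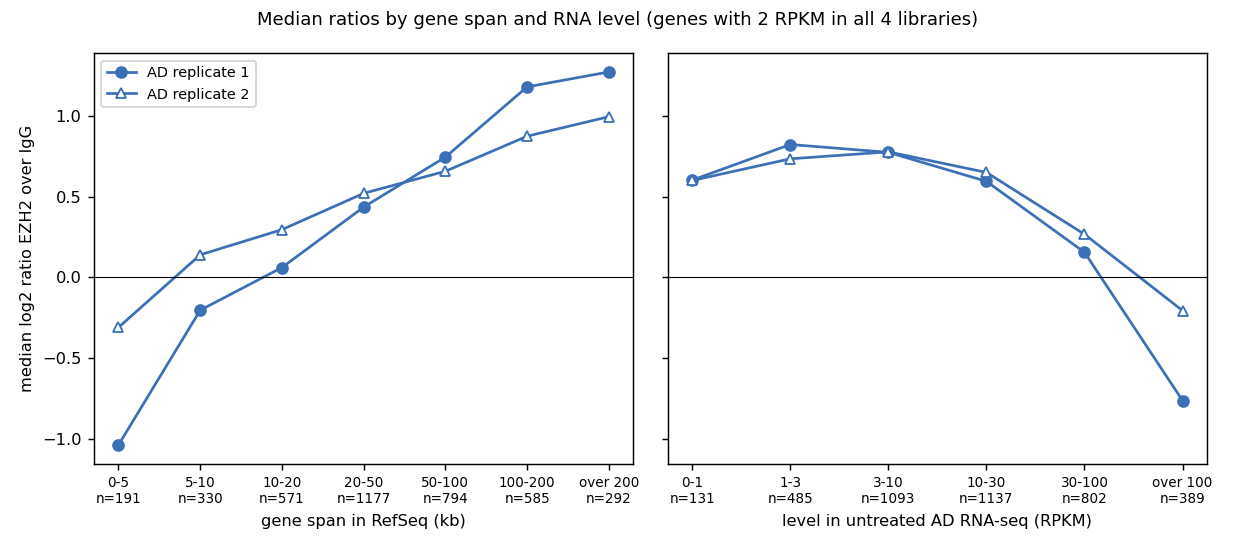
Median log2 ratio of EZH2 over IgG (y axis) by RefSeq gene span in kb (left) and by level in untreated AD RNA-seq in RPKM (right), for genes with 2 RPKM or more in all 4 libraries, circles for replicate 1 and triangles for replicate 2. Medians go from -1.04 and -0.31 in the shortest genes to 1.27 and 1.00 in the longest, and are lowest, at -0.76 and -0.21, in genes above 100 RPKM of RNA.

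Some genes with low RNA levels had high EZH2 RIP signal. They were chosen after their values were seen, and on their EZH2 values, which raises their ratios, so the counts are a description. Of the 512 members with under 1 RPKM in untreated AD RNA-seq, 53 had 10 RPKM or more in both EZH2 libraries, and 49 of these had both ratios above 1, against 25.7% of all members. Over the 49 genes the median was 20.6 and 19.6 RPKM with anti-EZH2, against 3.78 and 4.56 RPKM with IgG. Their median RNA level was 0.48 and 0.61 RPKM in untreated and 0.41 and 0.59 RPKM in AD cells 24 hours after mock transfection, where 6 of the 49 were above 1 RPKM in both libraries. The span was known for 48 of them, with a median of 205 kb.

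VPS13B, a bridge-like lipid transfer protein, had 56.8 and 54.1 RPKM with anti-EZH2 and 4.77 and 9.19 RPKM with IgG, at 0.47 and 0.97 RPKM in RNA-seq. ATM, the kinase that answers DNA double-strand breaks, had 31.0 and 30.9 RPKM with anti-EZH2 and 4.12 and 7.07 RPKM with IgG, at 0.62 and 0.61 RPKM in RNA-seq. Its relative ATR had 49.2 and 50.5 RPKM with anti-EZH2 and 8.81 and 9.74 RPKM with IgG. In these 3 genes the EZH2 values were several times both IgG values and nearly equal between replicates. DNAH1, an axonemal dynein heavy chain, had 24.1 and 42.1 RPKM with anti-EZH2 and 1.64 and 6.59 RPKM with IgG. RYR2, the calcium release channel of heart muscle, had 17.9 and 18.5 RPKM with anti-EZH2 and 2.91 and 2.85 RPKM with IgG, at 0.34 and 0.36 RPKM in RNA-seq. In AI cells, whose libraries are separate, 46 of the 49 genes had both ratios above 1, against 31.9% of all members and 70.5% of the members with both AD ratios above 1.

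Gene lists drawn up with earlier results of these data known were then read by function. Their counts are to be read against 25.7% of all members with both ratios above 1 and 2.31% with both under -1. Large chromatin regulators had both ratios above 1 in 21 of 30 members and under -1 in 0, against 25.7% and 2.31% of all genes of the rule. The limma test called 0 of the 30. Their medians were 1.75 and 1.22, and 29 of them had 2 RPKM or more in all 4 libraries. Genes of 100 to 200 kb with a mean of at least 10 RPKM had much the same medians, 1.75 and 1.20. Among genes measured in all 4 libraries, both ratios exceeded 1 for 38.5% between 100 and 200 kb and 45.9% above 200 kb. The part of span and level in this list was not tested. TRRAP, the giant scaffold of acetyltransferase complexes (chromosome 7, 98878532 to 99013241), had 57.8 and 80.3 RPKM with anti-EZH2 and 7.18 and 16.3 RPKM with IgG, which limma fitted as 2.60 ± 0.58 on the log2 scale (SE, adjusted p = 0.322). KMT2C, which methylates histone H3 lysine 4 at enhancers, had 82.5 and 64.0 RPKM with anti-EZH2 and 20.3 and 17.3 RPKM with IgG. CHD3, a remodelling ATPase of the NuRD complex, had 141 and 97.2 RPKM with anti-EZH2 and 44.2 and 46.3 RPKM with IgG. Its relative CHD4 had 65.0 and 53.5 RPKM with anti-EZH2 and 22.8 and 27.2 RPKM with IgG. Against IgG replicate 2 alone, 18 of the 30 had ratios above 1 for both EZH2 libraries.

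Giant cytoskeletal and scaffold transcripts had both ratios above 1 in 24 of 34 members of the rule (70.6%) and under -1 in 0. The shares were 25.7% and 2.31% of all members, and 45.9% were above 1 among genes above 200 kb measured in all 4 libraries. The list had medians of 2.56 and 1.64, and 31 of its members had 2 RPKM or more in all 4 libraries. LRBA, a vesicle protein with a BEACH domain, had 139 and 119 RPKM with anti-EZH2 and 33.2 and 34.4 RPKM with IgG. HUWE1, a HECT ubiquitin ligase, had 115 and 112 RPKM with anti-EZH2 and 20.0 and 41.1 RPKM with IgG. DYNC1H1, the heavy chain of cytoplasmic dynein, had 99.0 and 114 RPKM with anti-EZH2 and 21.4 and 40.3 RPKM with IgG. In each of them both EZH2 values exceeded both IgG values by more than the gap between replicates. UTRN, the dystrophin relative utrophin, had 176 and 67.2 RPKM with anti-EZH2 and 33.8 and 31.1 RPKM with IgG, so its EZH2 replicates were far apart. The summed RPKM of the whole list, with no minimum, was 2.39% and 1.55% of the EZH2 libraries and 0.501% and 0.754% of the IgG libraries. With IgG replicate 2 alone as the control, 22 of the 34 had ratios above 1.

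Core spliceosome genes had both ratios above 1 in 13 of 25 members (52%) and under -1 in 0, against 25.7% and 2.31% of all members. Their medians were 1.52 and 1.02. Genes of 20 to 50 kb with a mean of at least 10 RPKM, the span class of SNRNP200, SF3B1 and PRPF8, had medians of 1.20 and 1.10. The part of span and level in the spliceosome list was not tested. For 9 of the 25 the ratios were also above 1 against IgG replicate 2 alone. SNRNP200, the helicase that unwinds U4 from U6, had 80.7 and 98.6 RPKM with anti-EZH2 and 16.2 and 26.6 RPKM with IgG. SF3B1, the U2 component that binds the branch site, had 44.4 and 70.2 RPKM with anti-EZH2 and 12.5 and 14.2 RPKM with IgG. PRPF8 had 56.4 and 101 RPKM with anti-EZH2 and 19.4 and 40.7 RPKM with IgG. The 3 genes had EZH2 values above IgG in both replicates. Of 24 SR proteins and activators 3 had both ratios above 1, TRA2A, ACIN1 and NKTR, and of 34 hnRNPs and repressors 1 did, RBM10. The median log2 change was 0.54 for the SR list (24 genes tested) and 0.17 for the hnRNP list (39 tested). After quantile normalization it was -0.13 and -0.52 and, for hnRNPs, -0.06 after median scaling. SRRM2, a scaffold of nuclear speckles, had 87.0 and 88.8 RPKM with anti-EZH2 and 95.7 and 107 RPKM with IgG. Its ratios were -0.14 and -0.27, while ACIN1 had 53.9 and 52.0 RPKM with anti-EZH2 and 17.3 and 22.0 RPKM with IgG.

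Among PRC2 subunits, both ratios exceeded 1 in 2 of 11 members (18.2%, against 25.7% of all members), the 2 catalytic ones. EZH1 had 24.6 and 26.1 RPKM with anti-EZH2 and 11.0 and 7.09 RPKM with IgG, which limma fitted as 1.47 ± 0.55 on the log2 scale (SE, adjusted p = 0.425). JARID2, an accessory subunit that helps PRC2 to chromatin, had 7.57 and 11.98 RPKM with anti-EZH2 and 2.74 and 7.61 RPKM with IgG, and its groups overlapped. The histone-binding subunit RBBP7 had 7.43 and 14.4 RPKM with anti-EZH2 and 3.95 and 6.92 RPKM with IgG. The list's median ratios were 0.97 and 0.62, close to the 0.79 and 0.54 of all members. Of 14 PRC1 genes 3 (21.4%) had both ratios above 1, PHC1, SCMH1 and KDM2B. Over the 21 PRC1 genes tested the median log2 change was 0.30, or -0.21 after quantile normalization. Against IgG replicate 2 alone 2 of the PRC2 and 0 of the PRC1 genes had ratios above 1. SCMH1 had 8.09 and 12.3 RPKM with anti-EZH2 and 2.82 and 5.79 RPKM with IgG. L3MBTL2 had 8.34 and 20.2 RPKM with anti-EZH2 and 4.08 and 7.36 RPKM with IgG. In a list of enzymes that write or remove H3K36 or H3K27 methylation, 5 of 12 had both ratios above 1, namely KDM4A, KDM6A, PHF8, ASH1L and SETD2, and 3 against IgG replicate 2 alone. KDM6A, the demethylase that removes H3K27me3, had 78.2 and 73.6 RPKM with anti-EZH2 and 20.9 and 29.9 RPKM with IgG. SETD2, which places H3K36me3, had 39.0 and 26.5 RPKM with anti-EZH2 and 14.9 and 11.2 RPKM with IgG. With RPKM divided by each library's non-mitochondrial share, 0 PRC2, 1 PRC1 and 1 of these enzyme genes had both ratios above 1, compared with 1358 of all 6998 members.

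**Figure D4:**
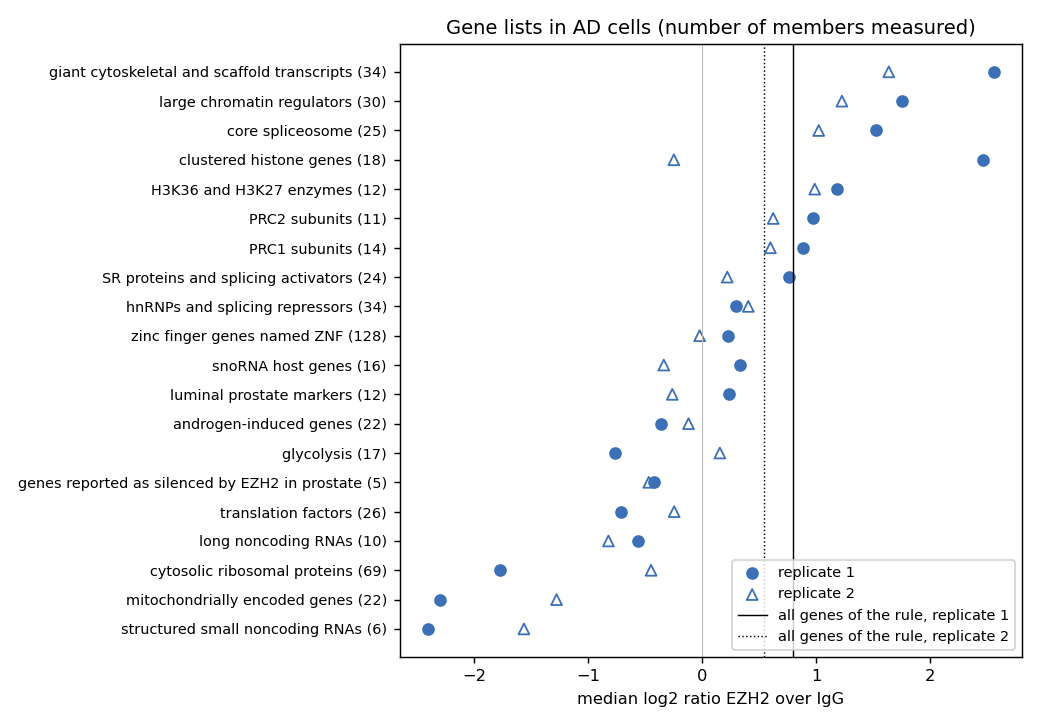
Median log2 ratio of EZH2 over IgG (x axis) for gene lists with at least 5 members in the rule, circles for replicate 1 and triangles for replicate 2, with the number of members in brackets; the solid and dotted vertical lines mark the medians of all members, 0.79 and 0.54. Giant scaffold transcripts (2.56 and 1.64) and large chromatin regulators (1.75 and 1.22) lie to the right in both replicates, while clustered histone genes are at 2.46 and -0.25.

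Of 10 long noncoding RNAs in the rule, from a list of known PRC2 partners and nuclear scaffolds, 0 had both ratios above 1 and 2 had both under -1, MALAT1 and NEAT1. Against IgG replicate 2 alone these numbers were 0 and 4. MALAT1, the abundant RNA of nuclear speckles (chromosome 11, 65497738 to 65506516), had 257 and 198 RPKM with anti-EZH2 and 1161 and 521 RPKM with IgG. NEAT1, which builds paraspeckles (chromosome 11, 65422798 to 65445540), had 77.9 and 78.9 RPKM with anti-EZH2 and 234 and 238 RPKM with IgG. Both lay below both IgG values, with log2 changes of -1.78 ± 0.55 and -1.58 ± 0.44 (SE, limma adjusted p = 0.358 and 0.353). SCHLAP1, a long noncoding RNA of aggressive prostate cancer, had 20.8 and 12.2 RPKM with anti-EZH2 and 60.0 and 22.2 RPKM with IgG. MALAT1 and NEAT1 together made up 0.458% and 0.290% of the summed RPKM of EZH2 libraries and 2.15% and 1.10% of IgG libraries. Quantile normalization turns the sign for MALAT1 to a log2 change of 0.17. SNHG14, the long host of imprinted small nucleolar RNAs, went the other way, with 17.7 and 25.1 RPKM with anti-EZH2 and 7.06 and 9.22 RPKM with IgG.

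Of 22 mitochondrially encoded genes in the rule, 14 had both ratios under -1, and 1, the transfer RNA gene MT-TH, had both above 1. MT-RNR2, the 16S ribosomal RNA, had 1006 and 479 RPKM with anti-EZH2 and 7301 and 1484 RPKM with IgG. MT-ND1, a subunit of respiratory complex I, had 162 and 122 RPKM with anti-EZH2 and 943 and 316 RPKM with IgG. Against IgG replicate 2 alone, 4 of the 22 had ratios under -1 for both EZH2 libraries. Of 6 structured small RNAs in the rule 4 had both ratios under -1, RN7SK, RNU12, SCARNA2 and SNORD3A, and 0 had both above 0. SCARNA2 had 2.92 and 21.6 RPKM with anti-EZH2 and 25.6 and 60.4 RPKM with IgG, with about 3.96 reads behind the IgG value in replicate 1. RNU12, the small nuclear RNA of the minor spliceosome, had 4.91 and 22.7 RPKM with anti-EZH2 and 35.9 and 50.3 RPKM with IgG, with about 1.98 reads behind the IgG value in replicate 1.

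Of 69 cytosolic ribosomal proteins 0 had both ratios above 1, 5 had both under -1 (RPL21, RPS2, RPL11, RPS24 and RPL38) and 54 had both below 0. The medians were -1.77 and -0.45. RPL11 had 21.5 and 22.6 RPKM with anti-EZH2 and 80.6 and 54.4 RPKM with IgG, and RPLP2 had 10.8 and 15.7 RPKM with anti-EZH2 and 46.9 and 27.1 RPKM with IgG. Ribosomal protein genes share sequence with many processed pseudogenes, and how the authors' counting split such reads is not given in the sources used here. Summed over 77 genes, their share was 0.527% and 0.468% with anti-EZH2, against 2.50% and 0.959% with IgG, so the gap was wider in replicate 1. Of 26 translation factors 0 had both ratios above 1 and 2 had both under -1, BTF3 and TPT1, while 6 had both above 0 and 13 both below 0. The median log2 change of this list was -0.17 (32 genes tested). EIF3B, a subunit of the initiation factor eIF3, had 33.6 and 55.95 RPKM with anti-EZH2 and 23.8 and 38.6 RPKM with IgG, and its groups overlapped. EEF1G, an elongation factor subunit, had 30.6 and 36.5 RPKM with anti-EZH2 and 129 and 45.7 RPKM with IgG. Of 17 glycolysis genes 2 had both ratios above 1, PFKL and PFKM, 0 had both under -1, and against IgG replicate 2 alone 0 had ratios above 1. ENO1, an enolase, had 33.3 and 61.7 RPKM with anti-EZH2 and 130 and 55.4 RPKM with IgG. PFKM, the muscle form of phosphofructokinase, had 24.5 and 53.3 RPKM with anti-EZH2 and 4.04 and 15.3 RPKM with IgG, and PFKL had 23.2 and 58.5 RPKM with anti-EZH2 and 3.64 and 25.9 RPKM with IgG. The groups overlapped for ENO1 and PFKL.

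Prostate identity genes had ratios on both sides of 0. Of 12 luminal markers 0 had both ratios above 1 or both under -1. E-cadherin (CDH1), an epithelial adhesion protein, had 16.8 and 37.6 RPKM with anti-EZH2 and 22.7 and 42.9 RPKM with IgG. Its groups overlapped. Of 22 androgen-induced genes 2 (9.09%, against 25.7% of all members) had both ratios above 1, TRPV6 and HERC3, and 0 had both under -1. KLK3, which encodes prostate-specific antigen, had 64.8 and 123 RPKM with anti-EZH2 and 143 and 219 RPKM with IgG, which limma fitted as -0.98 ± 0.61 on the log2 scale (SE, adjusted p = 0.638). The summed RPKM of 8 basal markers came to 4.27 and 3.62 with anti-EZH2 and 6.62 and 1.47 with IgG, and that of 12 blood and stromal markers to 9.89 and 26.97 with anti-EZH2 and 3.97 and 5.33 with IgG. COL1A1, a stromal marker, had 7.08 and 19.6 RPKM with anti-EZH2 and 0.40 and 3.61 RPKM with IgG. Among markers of these lists, TP63 was at most 0.06 RPKM, PTPRC at most 0.08 RPKM and CHGA and NEUROD1 at 0 in all 4 libraries. Others had signal. The blood and stromal marker VWF had 2.33 and 6.64 RPKM with anti-EZH2 and 1.83 and 1.28 RPKM with IgG. The basal marker KRT14 had 2.14 and 0.94 RPKM with anti-EZH2 and 0 and 0.32 RPKM with IgG. ITGB4, also basal, had 1.51 and 2.34 RPKM with anti-EZH2 and 4.35 and 0.70 RPKM with IgG. The neuroendocrine marker SYP had 0.04 and 0.29 RPKM with anti-EZH2 and 0.79 and 0.64 RPKM with IgG. Of the neuroendocrine list ENO2, which is also a glycolytic enzyme, met the rule, with 4.77 and 27.4 RPKM with anti-EZH2 and 4.25 and 15.0 RPKM with IgG. The part of such markers in the ratios was not tested, and both arms came from cells of the same line.

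Classical Polycomb targets gave too little signal to compare. Of 40 developmental regulators such as HOX and PAX genes, 1 met the rule, HOXB13, which is also a luminal prostate factor. It had 3.40 and 9.25 RPKM with anti-EZH2 and 1.55 and 12.3 RPKM with IgG. In a list of 26 genes known from prostate studies as EZH2-silenced, 5 met it. PEBP1, the Raf kinase inhibitor protein, had 3.40 and 3.59 RPKM with anti-EZH2 and 14.3 and 12.1 RPKM with IgG. DAB2IP, a Ras GTPase-activating protein, had 3.03 and 5.63 RPKM with anti-EZH2 and 1.15 and 2.22 RPKM with IgG. The 2 genes thus lay on opposite sides. Of 128 genes named ZNF, 9 had both ratios above 1 (7.03%, against 25.7% of all members) and 2 had both under -1. Over the 359 ZNF genes tested the median log2 change was 0.15, or -0.08 after median scaling and -0.27 after quantile normalization. With IgG replicate 2 as the control for both, 5 were above 1 and 3 under -1. ZNF236 had 34.7 and 45.8 RPKM with anti-EZH2 and 3.62 and 7.78 RPKM with IgG, and ZNF335 had 25.1 and 60.6 RPKM with anti-EZH2 and 4.86 and 10.2 RPKM with IgG.

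The deposited ChIP peak lists of AD cells showed whether genes of the RIP lie in EZH2 or H3K27me3 chromatin. A gene was counted when a peak overlapped its RefSeq span by 1 base or more in both lists of a mark. Each list came from 1 sample, and the EZH2 lists held 53911 and 12399 peaks, the H3K27me3 lists 124079 and 72749. H3K27me3 peaks lay over 88 of 1741 genes with both ratios above 1 (5.05%, exact 95% binomial interval 4.07% to 6.19%). They lay over 1 of 124 genes with both ratios under -1 (0.806%, 0.0204% to 4.41%) and over 185 of 6697 members with a span (2.76%, 2.38% to 3.18%). Gene length moved with this share: above 100 kb it was 11.8% of 620 genes with both ratios above 1 and 10.0% of all 1439 members. EZH2 peaks lay over 36.1% of genes with both ratios above 1, 6.45% of those with both under -1 and 25.1% of all members. Up to 20 kb the EZH2 share was 24.5% (19.6% to 29.9%) of the genes with both ratios above 1 and 14.7% (13.2% to 16.3%) of all members. Between 20 and 100 kb it was 35.4% (32.2% to 38.8%) and 25.5% (24.0% to 27.1%), and above 100 kb 42.3% (38.3% to 46.3%) and 38.8% (36.3% to 41.4%). The intervals cover counting error only. The 2 sets were partly made by the rule. Above 1, 850 of 1795 genes were members through the EZH2 pair only, and under -1, 104 of 162 through the IgG pair only. Peak shares were not computed for genes measured in all 4 libraries.

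H3K27me3 at the start of a gene was rare among members. In windows of 250 bases before to 50 after the RefSeq start, peaks of both lists lay over 4 of 1451 genes with both ratios above 1, 0 of 96 with both under -1 and 11 of 5544 members. Over all 27305 windows the number was 1599 (5.86%). EZH2 peaks lay over 0 windows of members and 27 of all. The 250 bases before the start of the 4 genes are shown because, of the 11 members with the mark there, these had both ratios above 1. Sequences are from RefSeq (GRCh38.p14), 5′ to 3′ on the gene's strand, with capitals marking CG pairs, at chr9:114155287-114155536 (plus strand) for COL27A1, chr10:132186698-132186947 (plus) for DPYSL4, chr3:79767999-79768248 (minus) for ROBO1 and chr19:45863148-45863397 (minus) for SYMPK.
COL27A1: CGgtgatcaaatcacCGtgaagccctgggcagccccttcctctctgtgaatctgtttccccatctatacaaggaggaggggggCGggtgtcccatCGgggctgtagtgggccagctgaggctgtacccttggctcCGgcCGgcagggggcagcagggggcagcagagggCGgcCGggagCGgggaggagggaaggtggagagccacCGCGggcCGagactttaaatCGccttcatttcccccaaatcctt
DPYSL4: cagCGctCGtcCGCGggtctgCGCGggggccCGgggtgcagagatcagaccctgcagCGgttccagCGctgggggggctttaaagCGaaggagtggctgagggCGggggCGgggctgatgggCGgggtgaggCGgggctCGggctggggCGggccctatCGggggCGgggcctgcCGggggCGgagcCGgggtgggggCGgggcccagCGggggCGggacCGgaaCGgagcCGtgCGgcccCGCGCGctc
ROBO1: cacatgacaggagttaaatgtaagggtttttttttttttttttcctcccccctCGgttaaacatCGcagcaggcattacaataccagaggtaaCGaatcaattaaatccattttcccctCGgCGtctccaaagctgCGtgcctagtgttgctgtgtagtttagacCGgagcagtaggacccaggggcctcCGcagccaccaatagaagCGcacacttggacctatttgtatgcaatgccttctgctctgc
SYMPK: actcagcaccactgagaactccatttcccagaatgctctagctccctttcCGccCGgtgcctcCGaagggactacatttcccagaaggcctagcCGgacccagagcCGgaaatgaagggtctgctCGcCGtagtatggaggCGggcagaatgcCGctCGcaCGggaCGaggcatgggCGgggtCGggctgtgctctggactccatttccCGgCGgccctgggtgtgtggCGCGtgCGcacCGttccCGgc
They hold 13, 31, 9 and 21 CG pairs, counted on 1 strand since the motif CG reads the same on both. The median over all 27305 windows of the same length was 11, and 93.6% held at least 1. COL27A1, a fibrillar collagen, had 2.28 and 2.64 RPKM with anti-EZH2 and 0.69 and 0.21 RPKM with IgG. DPYSL4, a dihydropyrimidinase-like protein of neurons, had 2.16 and 6.81 RPKM with anti-EZH2 and 0 and 2.57 RPKM with IgG, with overlap. ROBO1, the receptor of the guidance cue SLIT, had 3.59 and 6.49 RPKM with anti-EZH2 and 0.34 and 2.21 RPKM with IgG. SYMPK, a scaffold of the polyadenylation machinery, had 10.2 and 22.2 RPKM with anti-EZH2 and 3.76 and 6.99 RPKM with IgG. The 4 genes were named after their values were seen. COL27A1, DPYSL4 and ROBO1 were members through the EZH2 pair only, which raises their ratios.

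The same comparison in AI cells, made with other libraries, gave high ratios for many of the genes that were high in AD. Both AI ratios exceeded 1 for 2233 of the 6998 members and both were under -1 for 117 (1.67%). Of the 1795 members with both AD ratios above 1, 1265 (70.5%) had both AI ratios above 1 and 0 had both under -1. Of the 162 with both AD ratios under -1, 30 (18.5%) had both AI ratios under -1 and 17 had both above 1. Of the 945 genes measured in all 4 AD libraries with both AD ratios above 1, 728 (77.0%) had both AI ratios above 1, against 30.9% of the 4055 genes. Of the 58 with both AD ratios under -1, 22 (37.9%) had both AI ratios under -1, against 1.78% of the 4055. AD and AI ratios correlated at 0.685 in replicate 1 and 0.365 in replicate 2 across these genes. AI IgG replicate 2 was listed at 0 for 771 of them (19.01%), and without these 771 genes the correlation in replicate 2 was 0.695. Without them 637 of 847 genes (75.2%) with both AD ratios above 1 had both AI ratios above 1, against 28.1% of 3284. Deviations between the 2 EZH2 replicates correlated at 0.713 between AD and AI, and labels do not say what equal numbers share.

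The difference between AD and AI was tested directly. The limma test called 0 of 13667 genes for EZH2 over IgG in AD minus the same in AI (0%), with 436 at an unadjusted p under 0.05, 34 higher and 402 lower in AD. It called 0 genes for EZH2 against IgG in AI as well (0%), with 2930 at an unadjusted p under 0.05. The median log2 change was 0.43 in AD and 0.88 in AI, and that of the difference -0.34. With median scaling these were 0.20, -0.74 and 1.049, so the direction of the difference turned, and with quantile normalization they were -0.04, -0.06 and 0.01. BTAF1 had 76.5 and 69.1 RPKM in AD against 84.8 and 61.6 RPKM in AI with anti-EZH2, and NEAT1 had 77.9 and 78.9 RPKM in AD against 49.8 and 36.7 RPKM in AI with anti-EZH2. RYR2 had 17.9 and 18.5 RPKM in AD and 44.8 and 40.3 RPKM in AI with anti-EZH2, while IgG gave 2.91 and 2.85 RPKM in AD and 4.41 and 8.86 RPKM in AI.

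**Figure D5:**
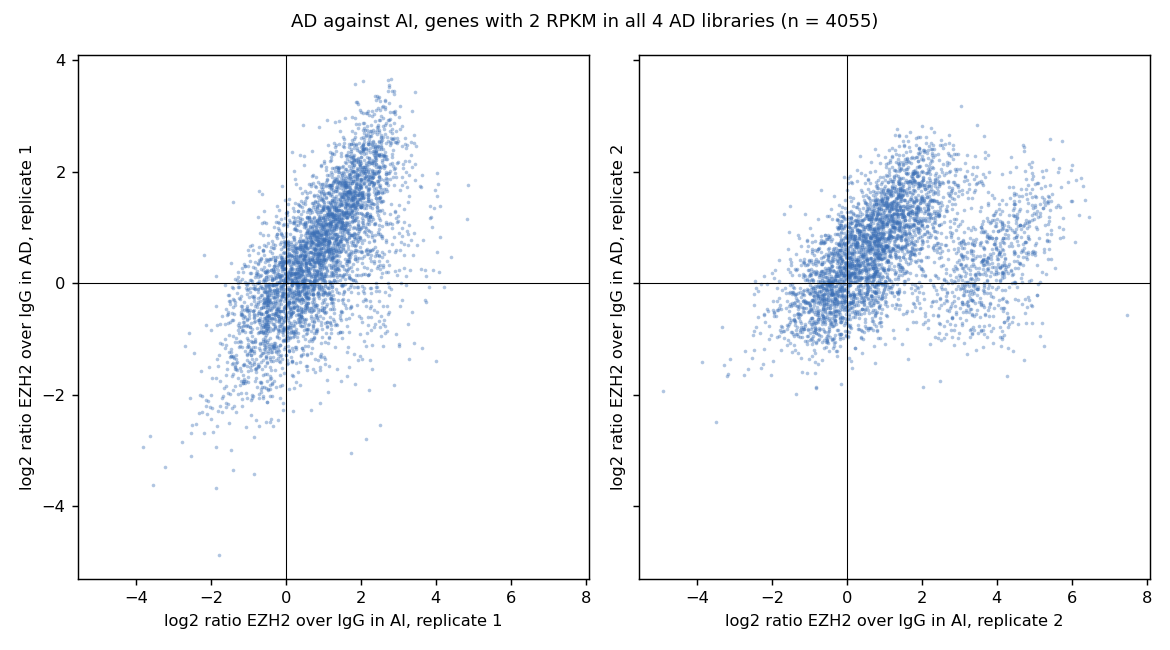
Log2 ratio of EZH2 over IgG in AD (y axis) against AI (x axis) for replicate 1 (left) and replicate 2 (right), 1 point for each of 4055 genes with 2 RPKM or more in all 4 AD libraries. Points rise together in both panels (correlations 0.685 and 0.365); in the right panel 771 genes were listed at 0 in AI IgG replicate 2, so that the pseudocount sets their value on the x axis.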

How the data were processed

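RIP and RNA-seq values were deposited by the authors as RPKM per gene, with 2 decimals; per the submitters' processing notes TopHat2, edgeR and GRCh38 were used for RIP, and cutadapt as well for RNA-seq, with no versions or roles. The counting tool, its use of strand and the annotation release were not given in the sources used here. Some labels name a paired-end and a single-end sequencer without saying which made which library. Deposited ChIP peak lists hold a score per peak, the authors' own value, which served to select peaks inside each list; per the submitters' processing notes cutadapt and Bowtie2 were used.

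Ensembl identifiers were matched to symbols (20331 of 25035) and to RefSeq spans (20151). Read depth was estimated from genes of 50 to 250 bases as the smallest depth at which their values came out as whole reads, within 0.03 of a read. Such values numbered 11 to 46 a library, so depths are approximate and all floors and intervals cover counting error only.

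The test was limma-trend on log2(RPKM + 0.5) over all 8 RIP libraries with 1 coefficient per group, for genes with 0.5 RPKM or more in at least 2 libraries; it was tested on simulated data. Fold changes on this scale understate those of low genes. RPKM are not counts, so no count test was run. Named genes were EZH2, then 12 at each end by the smaller of the 2 ratios among genes with a symbol (none was called, so places were filled in order), then up to 4 genes per list with the highest mean RPKM over the 8 libraries; others are named from counts. A result that needs a withheld gene is not reported here. The members and the 24 lists were chosen with earlier results of these data known. Peak overlap used bedtools 2.31.1; the limma version was 3.58.1. Other settings tried were pseudocounts, filters, scalings, a replicate block, left-out libraries and peak thresholds.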

Additional observations from a re-analysis of the deposited data

How the results depend on the processing

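The count of genes called in AD stayed at 0 under every alternative but 1. Labels number the libraries 1 and 2 in both arms without saying what the numbers share. Deviations of same-numbered EZH2 and IgG libraries correlated at 0.332 across genes in AD and 0.240 in AI, a hint only with 2 numbers. Between AD and AI, such deviations correlated at 0.713 for the EZH2 libraries and 0.097 for the IgG libraries. Those of AD EZH2 with AI IgG correlated at 0.211, and those of AD IgG with AI EZH2 at 0.298. Compared with those within a cell type, values across cell types were thus larger for EZH2, smaller for IgG and similar for EZH2 with IgG. With the replicate number as a block, limma called 645 genes in AD (616 higher, 29 lower with anti-EZH2), 1475 in AI (1419 and 56) and 0 for their difference. Leaving out a library gave 0 genes in AD and 0 to 733 in AI, the highest without AI IgG replicate 1. Genes with both ratios above 1 numbered 1080 with replicate numbers crossed, 1123 without IgG replicate 1 and 2818 without IgG replicate 2. Without replicate 1 or 2 of both arms a single ratio was left, and it was above 1 for 2549 and 3354 genes. Genes with both ratios under -1 numbered 75 at a minimum of 5 RPKM and 53 with a pseudocount of 2 RPKM. With RPKM divided by each library's non-mitochondrial share they numbered 267, and the gap in summed RPKM between arms stays under this rescaling. They numbered 569 without IgG replicate 1 and 894 without IgG replicate 2. Without replicate 1 or 2 of both arms, the single ratio was under -1 for 687 and 1426 genes. With libraries left out, the minimum is asked of fewer libraries. Dividing by the non-mitochondrial share gave 1357 genes above 1. This count and the 267 leave out the 22 mitochondrial members (6976 genes), and over all 6998 members they were 1358 and 281. For these ratio counts, leaving libraries out and rescaling were chosen after seeing the data, as were the promoter windows and the RNA level among genes measured in all 4 libraries.

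With peaks at or above the median score, the share of genes with an H3K27me3 peak was 2.70% for both ratios above 1 and 1.55% for all members, and with an EZH2 peak 21.2% and 13.7%. With 500 bases of overlap the EZH2 shares were 13.8% (above 1), 1.61% (under -1) and 9.20% (all members). The median RNA level of genes with both ratios under -1 was 195 RPKM among the 58 measured in all 4 libraries.

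Of 104 single genes, 46 passed the threshold under the block and 0 under other settings, and 3 of 1242 log2 changes under alternatives had the other sign: MALAT1 0.17 under quantile normalization, and CDH1 0.26 without EZH2 replicate 1 and 0.15 without IgG replicate 2 (range with a library left out -0.87 to 0.26). The cause was not tested. MT-RNR2 had exactly 0 under quantile normalization. The median log2 change of all genes tested was 0.43, 0.20 with median scaling and -0.04 with quantile normalization. The list medians of large chromatin regulators (0.79 to 1.49), giant scaffold transcripts (1.63 to 2.04), core spliceosome genes (0.41 to 1.03) and ribosomal proteins (-1.62 to -1.07) kept their sign under these 3 scalings, while hnRNPs were at 0.17, -0.06 and -0.52. The shallow IgG libraries limit what can be seen, since 3 reads on 2 kb come to 4.08 RPKM in IgG replicate 1 and 0.811 RPKM in replicate 2.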

Other observations

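Clustered histone genes, whose mRNAs lack a poly(A) tail and are short, differed widely between replicates. Of 18 members 2 had both ratios above 1, 1 had both under -1, and the medians were 2.46 in replicate 1 and -0.25 in replicate 2. H1-4 had 13.2 and 17.2 RPKM with anti-EZH2 and 0 and 27.8 RPKM with IgG, and H2AC21 had 10.3 and 10.5 RPKM with anti-EZH2 and 0 and 20.6 RPKM with IgG. Both were listed at 0 in IgG replicate 1, the shallowest library, and above the EZH2 values in IgG replicate 2.

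Hosts of small nucleolar RNAs lay near or below the other genes. Of 16 members 1 had both ratios above 1 and 0 had both under -1, with medians of 0.33 and -0.34. Over the 18 hosts tested the median log2 change was 0.18, or -0.05 after median scaling and -0.55 after quantile normalization. GAS5 had 17.9 and 37.6 RPKM with anti-EZH2 and 8.33 and 27.1 RPKM with IgG, and ZFAS1 had 8.29 and 13.4 RPKM with anti-EZH2 and 2.42 and 19.2 RPKM with IgG. In both hosts the groups overlapped.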
